A study of Zea mays with 10 samples.

Results

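The sites described here are binding sites of the maize transcription factor FEA4 that lie close to one another on a chromosome. They are the peaks of ChIP replicate 1 on chromosomes 1 to 10 that overlap a peak of ChIP replicate 2 by at least 1 bp (shared sites) and whose summit, the base of highest signal, lies within 10 kb of the summit of another shared site. Of 5018 replicate 1 peaks on chromosomes 1 to 10, 4115 were shared, and 1448 of these were clustered by this definition. That is 35.2% of the shared sites and 28.9% of the replicate 1 peaks. The other 2667 shared sites had no shared neighbour within 10 kb.

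FEA4 (FASCIATED EAR4) is a bZIP protein of the TGA class, related to PERIANTHIA of Arabidopsis, and limits the size of the shoot and inflorescence meristems. bZIP proteins bind DNA as dimers, through a basic region that contacts a short element in the major groove. Several sites of one factor can lie within a single promoter, in distant regulatory elements of the same gene, or in neighbouring genes. In maize, genes are denser towards the chromosome ends, and the middle of each chromosome is rich in transposable elements. FEA4 sites were mapped in these data by chromatin immunoprecipitation followed by sequencing (ChIP-seq), in which DNA crosslinked to a tagged protein is recovered with an antibody against the tag.

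The tissue was tassel primordia of 2 to 5 mm, the young male inflorescences, from field-grown plants given as normal B73 in genotype. The plants carried a YFP-FEA4 transgene, named pFEA4-YFP::FEA4 in the series, from 1 integration event (A399S1-7) that complemented the mutant. All ChIP and input samples came from such plants. Tissue was fixed in 1% formaldehyde for 15 minutes, and chromatin was precipitated with an anti-GFP antibody, which also binds YFP. There were 2 ChIP replicates with 2 input replicates, and ChIP from plants without the tag was not analysed here. The inputs could enter only through the peak lists. No source used here says whether the replicates came from separate plants. The series also holds RNA-seq of fea4 mutant and fea4/+ ear primordia, not used here, since no gene coordinates of the build of the peak lists, AGPv2, were at hand. For the same reason no site is given a gene, a gene part or a DNA sequence.

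The replicate 1 list held 5020 peaks and the replicate 2 list 9644. On chromosomes 1 to 10, 82.0% of the replicate 1 peaks overlapped a replicate 2 peak and 41.95% of the replicate 2 peaks overlapped a replicate 1 peak. The lists have no header, and their value columns were read by the usual layout of the peak caller MACS. Read so, each peak has a score, which rises with the significance that the caller gave it, and each summit has a height, a whole number for the depth of the signal there. Over all peaks on chromosomes 1 to 10 the median height was 6 in replicate 1 and 9 in replicate 2. The lowest value was 3 in both lists, so many single peaks rest on shallow signal. No source used here gives the read totals of the ChIP libraries, so the depth behind a peak is unknown beyond its height. Peak positions in both replicates chose the sites, and scores, widths and heights come from the same peak calls. Sites of a run also share their locality and are not replicates of one another. All values below are therefore descriptions, and no difference between clustered and other sites was tested.

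On a log scale, distances to the nearest shared summit fell into a near and a far hump. The distance ranges given here widen with distance, so their counts are not densities per kilobase. Within 1 kb lay the nearest neighbour of 261 shared sites, and between 1 and 2 kb that of 422. A further 458 sites had it between 2 and 5 kb and 307 between 5 and 10 kb. Past the limit, 253 sites had it between 10 and 20 kb, 473 between 20 and 50 kb and 462 between 50 and 100 kb. The near hump was thus highest between 1 and 2 kb. The median distance was 2157 bp in clustered sites and 129248 bp in other shared sites, a gap that the definition itself sets.

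**Figure D1:**
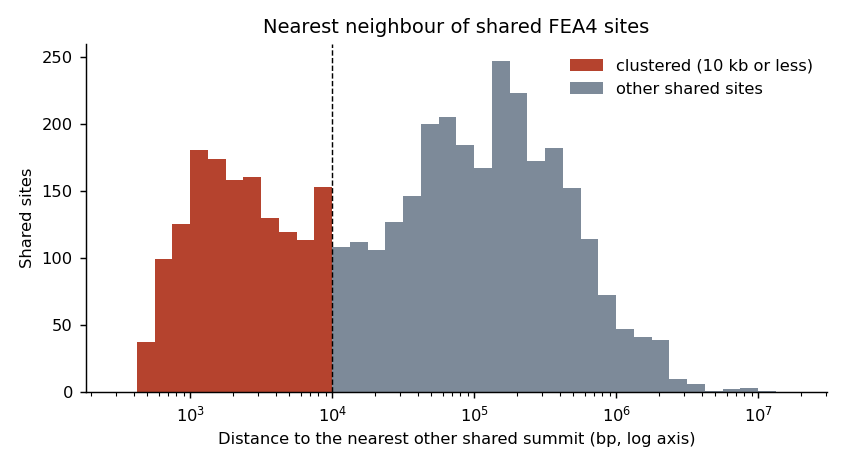
Number of shared FEA4 sites (vertical axis) by distance from the replicate 1 summit to the nearest other shared summit (horizontal axis, log scale in bp), with clustered sites in red, the other shared sites in grey and the 10 kb limit dashed. The 1448 clustered sites have a median of 2157 bp and the 2667 others a median of 129248 bp. On this log axis, where bins widen with distance, the counts are low around the limit.

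The pairs nearest to the limit show how little separates the classes there. The last pairs inside were 9925 bp apart on chromosome 2, 9942 bp on chromosome 4 and 9965 bp on chromosome 7. The first pairs outside were 10008 bp apart on chromosome 9, 10052 bp on chromosome 3 and 10081 bp on chromosome 2. The pair on chromosome 9 joined a site with a score of 159.53 and a height of 7, which was clustered through another neighbour, to a site with a score of 491.01 and a height of 23, which was not clustered.

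The 1448 clustered sites formed 624 runs, a run being a chain of sites in which each summit lies within 10 kb of the next. Most were simple pairs: 474 runs (76.0%) had 2 sites, 108 had 3, 35 had 4, 6 had 5 and 1 had 6. The 150 runs of 3 or more sites held 500 of the clustered sites (34.5%). The mean was 2.32 sites per run. These counts depend on the lists used: without replicate 2, replicate 1 peaks alone gave 1818 clustered peaks in 770 runs (36.2% of peaks), and without replicate 1, replicate 2 peaks alone gave 4566 in 1808 runs (47.4%). With scores of at least 100 in both lists, 343 shared sites (21.2%) were clustered, in 160 runs. Counting sites on the same replicate 2 peak once left 1246 clustered sites (31.2%) in 548 runs. A limit of 5 kb gave 1141 clustered sites (27.7%), and a limit of 20 kb gave 1701 (41.3%).

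Most runs were compact. From first to last summit a run spanned a median of 3258 bp, with extremes of 463 and 22281 bp. The median span was 2530 bp in runs of 2 sites, 5111 bp in runs of 3 and 8646 bp in runs of 4. The 6 runs of 5 sites spanned 4842 to 8590 bp, so they were no longer than a typical run of 4. In 29 runs of 3 or more sites the first and last summits lay over 10 kb apart, joined through sites between them. Runs were far from one another, with a median gap of 1198150 bp from one run to the next, and 26 of 614 gaps (4.23%) were under 50 kb.

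Neighbouring sites of a run were most often 1 to 2 kb apart. Over the 824 neighbouring pairs the median spacing of the summits was 2261 bp, with quartiles of 1255 and 4686 bp. Between 1 and 2 kb lay 234 pairs (28.4%), against 132 pairs (16.0%) below 1 kb and 122 (14.8%) between 2 and 3 kb. From 5 kb up, each further kilobase held 31 to 41 pairs. Intervals of one list do not overlap, and a clustered interval had a median width of 654 bp, so few spacings under that width could occur. Spacing in runs of 3 or more sites (median 2134 bp, 350 pairs) was close to that in runs of 2 (median 2530 bp, 474 pairs).

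The unmarked stretch between neighbouring intervals was often short. Measured from edge to edge it had a median of 1584 bp, was under 500 bp in 206 pairs (25%) and under 100 bp in 49 pairs (5.95%), with a smallest value of 4 bp. The closest summits were 463 bp apart on chromosome 8, in the intervals chr8:95744365-95744742 and chr8:95744822-95745686. Their scores were 51.88 and 172.79 and their heights 5 and 12. The next closest were 469 bp apart, also on chromosome 8 (chr8:67973757-67974191 and chr8:67974206-67974856), with scores of 55.9 and 269.12. In both cases a weak site flanked a stronger one. The summits of the next pair, 474 bp apart on chromosome 3 (chr3:175690274-175690714 and chr3:175690843-175691365), had scores of 58.16 and 56.86 and an equal height of 4. In each of these 3 pairs both sites fell on a single replicate 2 peak.

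The spacing can also be read from replicate 2, though not independently. A partner overlaps its site by definition, so similar spacings in the 2 replicates are largely set in advance. In 125 of the 824 pairs (15.2%) both sites fell on 1 replicate 2 peak, the partner of a site being the overlapping replicate 2 peak of highest score. Those pairs had a median spacing of 808 bp, and 86 of them were among the 132 pairs closer than 1 kb. Their largest spacing was 2129 bp, in a pair of which 1 site also overlapped another replicate 2 peak. In 75 of the 624 runs all sites had the same partner, and 67 of these overlapped no other replicate 2 peak, so replicate 2 shows 1 peak where replicate 1 shows a run. In the 699 other pairs the sites had different partners, whose summits had a median spacing of 2843 bp, against 2840 bp for the replicate 1 summits of these pairs. The 2 spacings of a pair differed by a median of 85 bp, and by at most 250 bp in 561 pairs (80.3%). The partners lay within 10 kb of each other in 695 of the 699 pairs, and 195 of the pairs (27.9%) were 1 to 2 kb apart by replicate 2 summits.

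**Figure D2:**
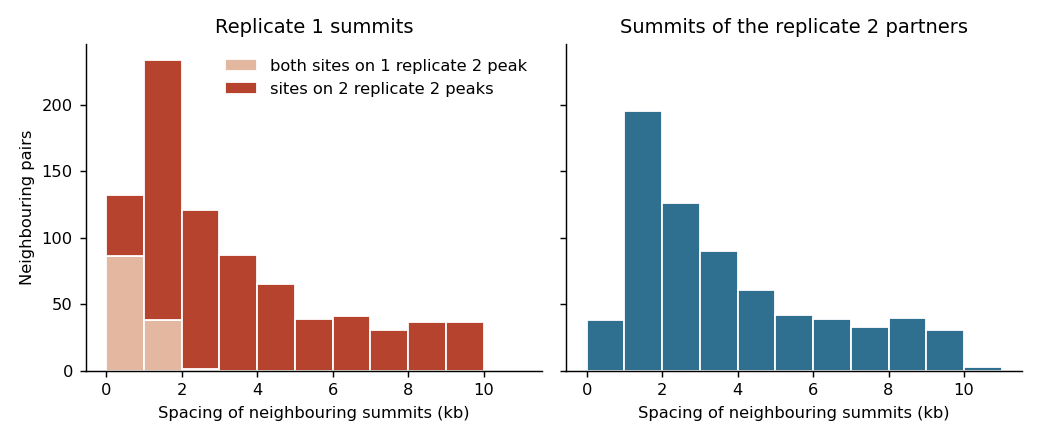
Number of neighbouring pairs in runs (vertical axis) by spacing of their summits in 1 kb bins (horizontal axis, kb): at left the 824 pairs by replicate 1 summits, with the 125 pairs that fall on a single replicate 2 peak in pale red, and at right the 699 other pairs by the summits of their replicate 2 partners. The bin from 1 to 2 kb is the highest in both panels, with 234 and 195 pairs. Partners overlap their sites by definition, so the panels are not independent.

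The run with the most sites lay on chromosome 1, at chr1:266158692-266165738, with 6 sites in 6340 bp. Its summits stood at 266159104, 266160379, 266161375, 266162635, 266164110 and 266165444, and the 5 spacings between them were 996 to 1475 bp. The spacing was thus even along the run by replicate 1 summits. By the summits of the replicate 2 partners it was 1269, 2189, 0, 1265 and 1671 bp, the 0 standing for a common partner. The run also held 1 peak of replicate 2 only. From left to right the replicate 1 scores were 68.67, 137.04, 61.14, 185.82, 50.41 and 82.71, and the heights 4, 8, 3, 9, 3 and 9. Sites 2 and 4, counted from the left, had the highest scores, and site 5 was just above the lowest score in the list (50.03). In replicate 2, sites 3 and 4 fell on 1 peak of 1997 bp, with a score of 301.94 and a height of 12. The other 4 sites had replicate 2 scores of 290.78, 168.04, 105.26 and 135.17 and heights of 22, 15, 10 and 10. The tallest replicate 2 summit was that of the first site, which was among the lower ones in replicate 1.

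The 6 runs of 5 sites are described too, a choice made after their values were seen. In the run at chr1:33672286-33681446 the 4 spacings were 1899, 2217, 2247 and 2038 bp, and each site had its own replicate 2 peak. Its last site was the tallest in both replicates, with heights of 12 and 30. In the run at chr1:25374238-25380056 the last pair, 636 bp apart, fell on 1 replicate 2 peak. The second site had the highest score there in both replicates (249.89 and 587.51).

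The run at chr2:60871427-60880778 was the strongest of these. Its second site had the highest scores, 436.11 in replicate 1 and 1261.49 in replicate 2, with heights of 18 and 61. The next site was taller than that in replicate 1 (22) and lower in replicate 2 (30), so the replicates ranked these sites differently by height. The 5 sites had 3 partner peaks in replicate 2, and overlapped 4 replicate 2 peaks in all, since the first site overlapped 2. On the same chromosome the next shared site lay 33385 bp further on and belonged to a run of 4.

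The 3 remaining runs of 5 were less even. In the run at chr3:6968572-6977859 the spacings were 2546, 3096, 2147 and 533 bp. In the run at chr7:41418401-41427635 a gap of 5109 bp separated 3 sites from a close pair 747 bp apart. In the run at chr8:66402165-66409832 a gap of 4361 bp separated 2 sites from 3 sites. In each of these 3 runs 1 replicate 2 peak covered a closely spaced pair.

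**Figure D3:**
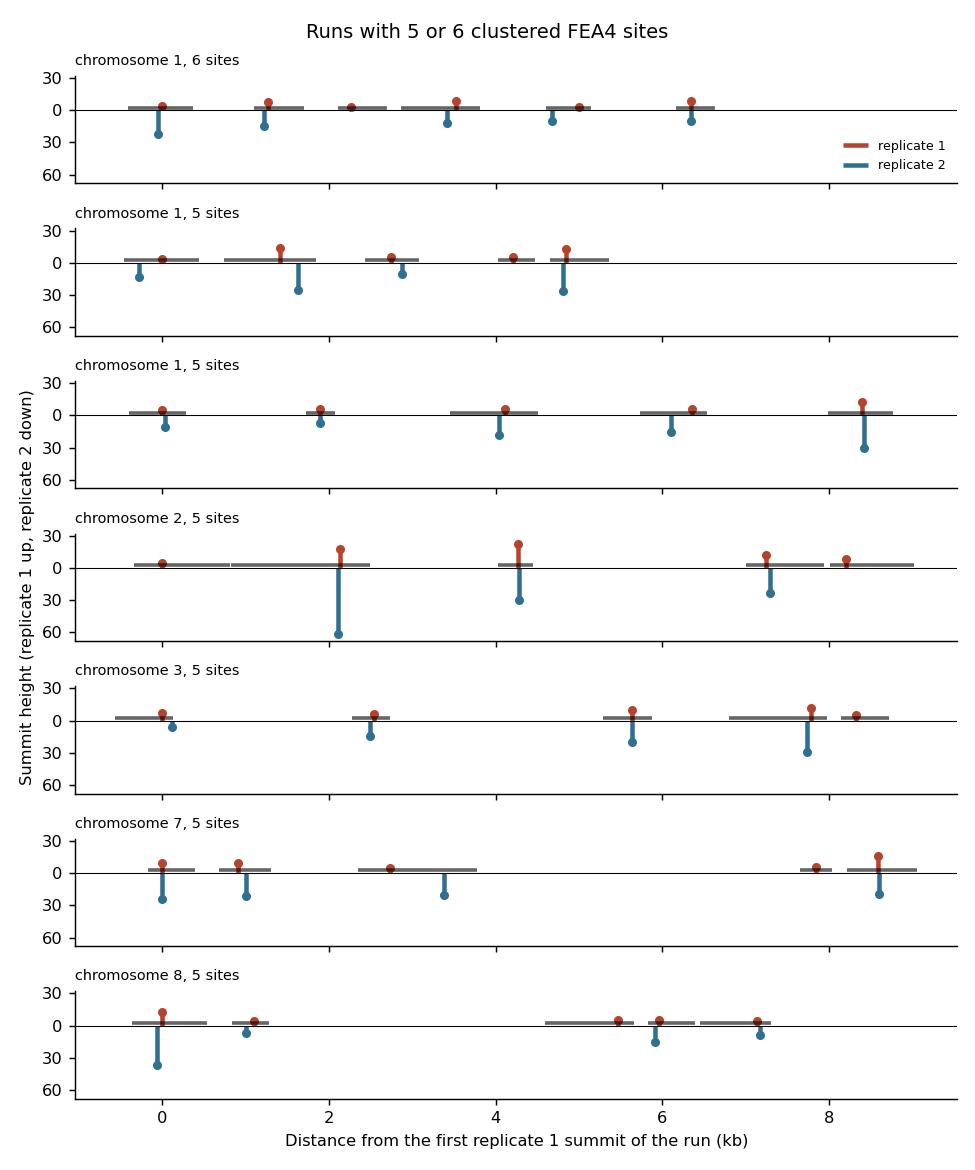
The 7 runs with 5 or 6 clustered sites, each drawn from its first replicate 1 summit (horizontal axis, kb), with summit height upwards for replicate 1 (red) and downwards for the replicate 2 partners (blue, each partner drawn once); dark bars are the replicate 1 intervals. By replicate 1 summits the top run has 6 sites 996 to 1475 bp apart, and the run on chromosome 2 holds the tallest partner, with a height of 61.

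In replicate 1, clustered sites had slightly higher scores and slightly wider intervals than other shared sites, with much overlap. The median score was 95.1 (quartiles 68.5 and 144.5) in clustered sites and 88.4 (66.3 and 132.2) in the others. The median width was 654 bp (522 and 836) against 618 bp (493 and 784.5). The median height was 7 in both, with upper quartiles of 10 and 9. A score of at least 300 was held by 82 clustered sites (5.66%) and 90 others (3.37%), and a width of at least 1000 bp by 175 (12.1%) and 233 (8.74%).

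The partners in replicate 2 differed more. Their median score was 207 for clustered and 162 for other shared sites, their median width 919 and 788 bp, and their median height 15 and 13. Part of this came from the 246 clustered sites (17.0%) that shared a partner with another member, since such a peak is counted once for each site on it. Over the 1202 clustered sites with a partner of their own, the median replicate 2 score was 181, the width 842.5 bp and the height 14, still above the values of the other shared sites.

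**Figure D4:**
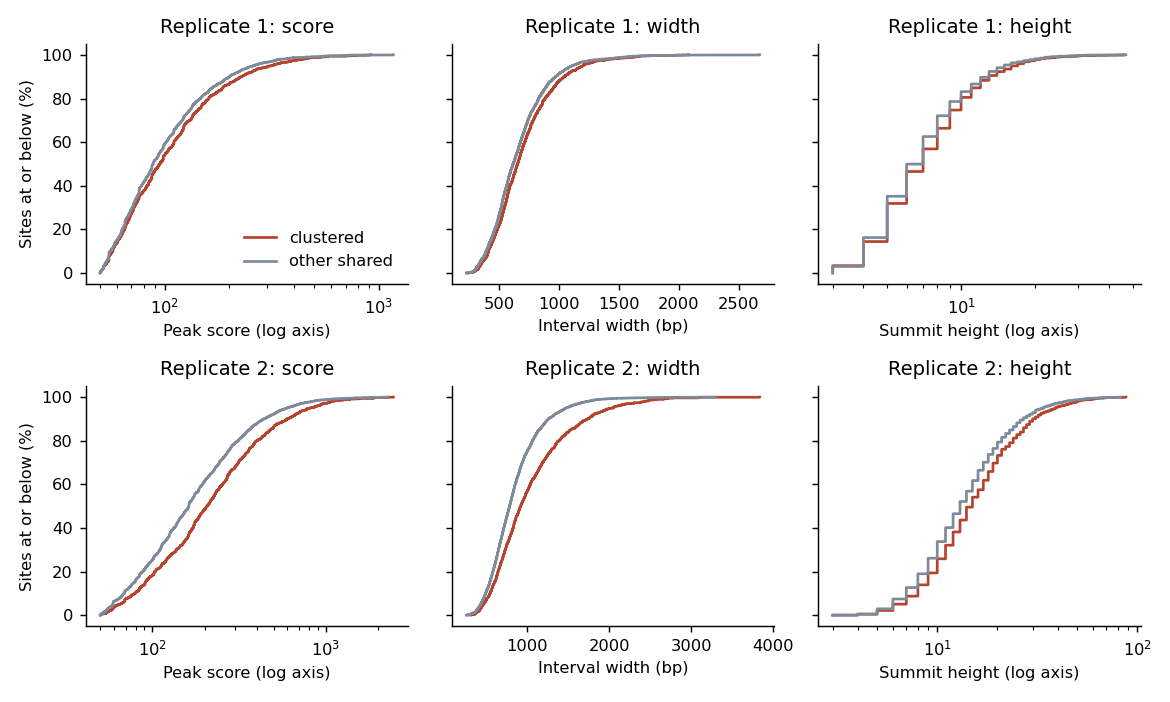
Cumulative share of sites (vertical axis, percent) by peak score (log axis), interval width (bp) and summit height (log axis) in replicate 1 (top row) and in the replicate 2 partners (bottom row), for the 1448 clustered sites in red and the 2667 other shared sites in grey. The curves nearly coincide in replicate 1, with median scores of 95.1 and 88.4, and stand further apart in replicate 2, with medians of 207 and 162. A partner common to several sites is counted for each of them. Over the 1202 clustered sites with a partner of their own the replicate 2 median was 181.

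The median replicate 1 score of the sites was nearly the same in runs of 2 (94.6), of 3 (95.0) and of 4 (95.5). It was 108.4 over the 30 sites in runs of 5 and 75.7 over the 6 sites of the largest run. In replicate 2 the median was 193, 228 and 228 in runs of 2, 3 and 4, 359 in runs of 5 and 229 in the largest run. These replicate 2 medians count a partner once for each site on it. A rise with run size can therefore not be read from them alone. The strongest site of a run was higher in larger runs and the weakest was lower, which more sites per run give in any case. The median of the highest score was 130.4, 155.3 and 156.0 in runs of 2, 3 and 4, and that of the lowest was 71.4, 65.4 and 64.1.

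The share of shared sites that were clustered was larger at higher scores, with a wider range by the replicate 2 score. With the shared sites ordered by replicate 1 score in 10 groups of 411 or 412, it was 31.6% in the lowest group and 42.7% in the highest, with values from 30.8% to 37.0% between. Ordered by the score of the replicate 2 partner, it went from 26.0% to 49.0%. The second ordering includes the partners counted for more than 1 site.

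The member with the highest replicate 1 score lay at chr10:47299849-47300925, with a score of 919.78 and a height of 34 in replicate 1 and 1556.45 and 70 in replicate 2. The only other site of its run, 1432 bp away, had a score of 121.89 and a height of 9 and fell on the same replicate 2 peak. The next, at chr2:3335286-3336948, had scores of 889.95 and 2447.17, the latter the highest of the whole replicate 2 list. Its neighbour 1746 bp away (chr2:3337160-3338250) was strong too, with scores of 701.94 and 1877.86 and heights of 30 and 61. Both sites of that run were thus strong in both replicates.

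The other 3 of the 5 highest scores also had weaker neighbours. The site at chr2:7732992-7733887 (scores 853.33 and 990.04) had its nearest neighbour 9925 bp away, with scores of 84.06 and 93.44, just inside the limit. The site at chr2:180578177-180578800 (786.09 and 969.86) had a neighbour 8533 bp away with scores of 303.49 and 804.3. The site at chr5:14513863-14515233 (768.67 and 1297.55) had a neighbour 7964 bp away with scores of 74.66 and 66.21. The widest member, chr2:185020982-185023064, spanned 2083 bp and covered parts of 2 replicate 2 peaks, with a score of 223.96 and a height of 9. The narrowest, chr9:146339369-146339596, spanned 228 bp with a score of 129.65 and a height of 6, while its replicate 2 partner spanned 1140 bp.

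In the 474 runs of 2 sites the scores of the sites differed by a median of 46.9, and by at least 50 in 230 runs (48.5%). The median score was 130.4 for the stronger and 71.4 for the weaker site, an order that sorting the sites sets. Which of the sites was the stronger mostly recurred in replicate 2. Of 398 such runs with separate partners and no tied scores, the same site had the higher score in both replicates in 290 (72.9%). By height it was 246 of 334 runs (73.7%). Where the replicate 1 scores differed by at least 50, it was 167 of 193 (86.5%), and where they differed by less, 123 of 205 (60%). No such share was computed for pairs of other shared sites, so it is not shown to be particular to runs.

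Scores of neighbours ranked only weakly alike. Over the 474 runs of 2, Spearman's rho between the replicate 1 scores of the left and the right site was 0.11, as a description of pairs that share a library and a locality. Between the spacing and the mean score of a run of 2 it was 0.01. Over the clustered sites rho between the replicates was 0.54 for score and 0.61 for height (n = 1448), and over the other shared sites 0.56 and 0.65 (n = 2667), where each point is 1 site read in both libraries.

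The strongest site of a run of 3 or 4 stood at any place in it. Among the 108 runs of 3, counted from the lower coordinate, the strongest site by replicate 1 score was the first in 42, the middle one in 31 and the last in 35. By the partners' score the counts were 44, 36 and 28, a partner common to several sites being given to the first of them. Among the 35 runs of 4 the counts from first to last were 5, 9, 8 and 13 by replicate 1 score and 12, 10, 7 and 6 by the partners' score. Summits of a site and its partner lay a median of 52.5 bp apart in clustered sites and 47 bp in other shared sites.

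Peaks found in 1 replicate only also lay near many clustered sites. Of the clustered sites, 600 (41.4%) had a peak of replicate 2 only within 10 kb, against 749 (28.1%) of the other shared sites. For peaks of replicate 1 only it was 124 (8.56%) against 129 (4.84%). Sites of a run share much of this range, so 1 such peak can count for several of them. The part of local peak density in these shares was not tested. Inside the runs, between first and last summit, 102 of the 624 runs (16.3%) held at least 1 further peak of replicate 2 only, 117 in all, and 21 runs held 1 of replicate 1 only. Among the 2667 sites classed here as other, some therefore have a near neighbour that a single replicate called.

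A related count starts from replicate 1 alone. Of 1818 replicate 1 peaks with another replicate 1 peak within 10 kb, shared or not, 86.7% overlapped a replicate 2 peak, against 79.3% of the 3200 without one. The median scores of these groups were 87.2 and 80.1. Within scores of 50 to 75 the shares were 74.2% and 63.8%, from 75 to 150 they were 92.6% and 88.8%, and from 150 up they were 99.7% and 99.4%. Nearly all peaks of the highest scores overlapped a replicate 2 peak in both groups, which leaves little room for a gap there. Starting from replicate 2 alone, 46.0% of the 4566 peaks with a replicate 2 neighbour within 10 kb overlapped a replicate 1 peak, against 38.3% of the 5074 without one. By score the shares were 17.7% and 13.9% from 50 to 75, 36.5% and 34.5% from 75 to 150, and 81.4% and 75.9% from 150 up. The score range with the widest gap thus differed between the lists.

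Runs occurred on all 10 chromosomes. Chromosome 1 had the most, with 112 runs and 272 clustered sites, and chromosome 6 the fewest, with 39 runs and 90 sites. The share of shared sites that were clustered lay between 29.2% on chromosome 4 and 38.7% on chromosome 1. Per megabase, measured to the last peak of either list, chromosome 1 had 0.372 runs and chromosome 4 had 0.183. The same 2 chromosomes had the highest and lowest density of shared sites, 2.33 and 1.39 per megabase.

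A larger part of the clustered than of the other shared sites lay near the chromosome ends. Each chromosome was divided into 5 zones of equal length, from the middle zone to the outermost, each zone taking a stretch on both sides of the middle. The outermost zone held 42.9% of the clustered and 32.8% of the other shared sites, and the middle zone 5.52% and 10.2%. The share of shared sites that were clustered was 22.8%, 31.0%, 33.1%, 33.9% and 41.5% from the middle outwards. Shared sites themselves were denser outwards, with 351, 519, 783, 966 and 1496 in these zones. The part of site density in the share that is clustered was not tested.

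Those in the middle zone were few and had the smallest median spacing. That zone had 80 clustered sites in only 36 runs, and in the outermost zone 621 sites formed 263 runs. From the middle outwards the median spacings were 1402, 2517, 1964, 2217 and 2642 bp, without a steady rise. The median replicate 1 score of clustered sites was 109.1 in the middle zone and 94.2 in the outermost, and that of the other shared sites 86.1 and 90.4.

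**Figure D5:**
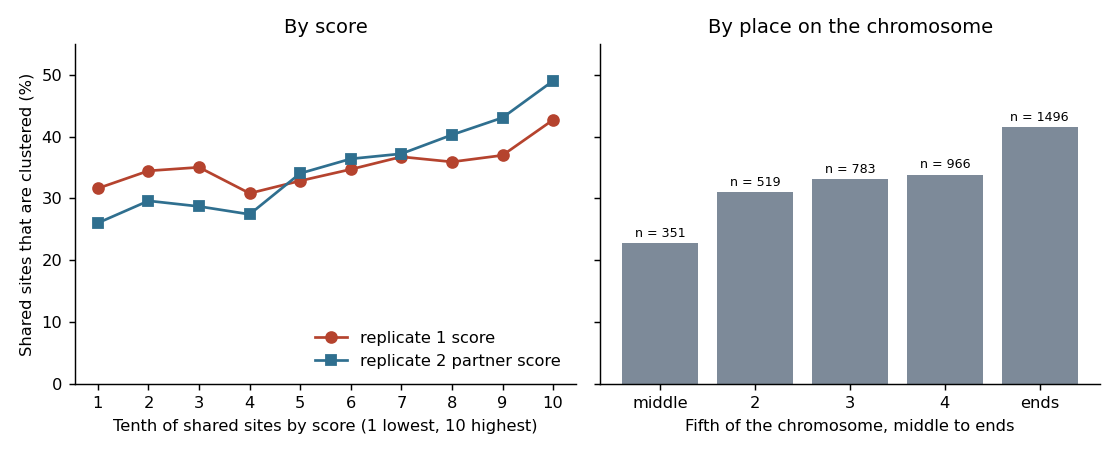
Share of shared sites that are clustered (vertical axis, percent), at left over 10 groups of sites from the lowest to the highest score by replicate 1 score (red circles) and by the replicate 2 partner score (blue squares), and at right over 5 zones from the middle to the ends of the chromosomes, with the number of shared sites above each bar. By replicate 2 score the share goes from 26.0% to 49.0%, and along the chromosome from 22.8% in the middle to 41.5% at the ends.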

How the data were processed

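The authors deposited, per ChIP replicate, a list of peaks with a score and a list of summits with a signal height, both used as deposited. The submitters' processing notes name CASAVA, Bowtie 0.12.7 and MACS 1.4.0rc2, without their roles. The lists have no header, so the meaning of both value columns was taken from the usual MACS layout. Chromosome names carry AGPv2, and the lowest deposited scores were 50.03 and 50.01. Peaks were listed per replicate, and each list was matched to the ChIP sample of its number. The inputs carry the same replicate numbers, but the labels do not say which input was used for which list.

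Positions are given 1-based. Peaks and summits were joined by peak name, and each summit lay inside its interval. Shared sites, runs and quantiles were computed with Python 3.11.15 and pandas 2.3.3. The code was checked on simulated lists with planted runs. No differences were tested and no p-values computed. Sites and lists were chosen with earlier results of these data known. Sites named singly are the run with the most sites, the 6 runs of 5 sites (added after their values were seen), the 5 highest scores, the 3 closest and 3 widest spaced pairs, the widest and narrowest site, the 3 pairs on each side of the limit, and the chromosomes with the most and fewest runs. All 10 alternatives planned were tried.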

Additional observations from a re-analysis of the deposited data

How the results depend on the processing

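Of 80 recomputed values (8 results under 10 alternatives), 55 stayed close to the reported value and 25 moved. Close meant within 1.5 times for counts and within 1 SD for the other results. The SD came from only 2 values, those from each list alone, which are themselves among the alternatives. It was 10.6 bp for spacing, 7.87 percentage points for the share and 0 for height, so the split reflects these limits. Only the median score and width differences could be called reversed, and 0 of them were. Keeping scores of at least 100 in both lists left 343 clustered sites in 160 runs, 21.2% of shared sites, with 2.14 sites per run, a median spacing of 2554 bp and a width difference (clustered minus other, medians) of 71 bp. Fewer sites were then left in all. From one list alone, without replicate 2 and without replicate 1, clustered peaks numbered 1818 and 4566 (36.2% and 47.4%) in 770 and 1808 runs, with 2.36 and 2.52 peaks per run and median spacings of 2434 and 2449 bp. Median differences were then 7.13 and 10.5 in score and 50.5 and 55 bp in width. The median spacing was 1746 bp with a 5 kb limit and 3062 bp with a 20 kb limit, which the limit itself sets. It was 2298 bp where a replicate 2 peak had to cover 50% of the site, 2892 bp with sites on the same replicate 2 peak counted once, 2840 bp by replicate 2 partner summits (sites on 1 peak again counted once) and 1676 bp between interval edges. The width difference was 28 bp with the 20 kb limit, 42.5 bp with sites on 1 peak counted once and 43 bp by partner summits, and the median height differed by 1 with edge gaps. The cause of the other moves was not tested. Heights as low as 3 limit what single sites can show. No paired analysis was possible, because the peak lists give no test between groups and no separate input values.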
